A study of Mus musculus with 6 samples.

Results

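The mitochondrial ribosomal protein genes were the 78 genes whose symbol began with Mrpl or Mrps followed by a number and whose mean over the 6 libraries was at least 10 normalised read counts. All 78 such symbols in the table of 14526 genes reached that mean, so none lay just outside it, and all 78 were among the 12568 genes tested. By symbol, 49 belonged to the large subunit of the mitochondrial ribosome and 29 to the small subunit. Their means ran from 186 for Mrpl57 to 2399 for Mrpl9, with a median of 876, beside a median of 887 over all tested genes. The libraries came from NMuMG cells, a mouse mammary epithelial line that undergoes epithelial to mesenchymal transition under TGF-beta. Per the labels, siRNA and TGF-beta were given together 16 hours after plating and again on day 2. Of the 6 libraries, 3 received a non-targeting siRNA (siNTC) and 3 an siRNA against Mnt (siMnt), and all 6 were under TGF-beta at day 4. Both groups share the cytokine and a transfection, and cells without either were not analysed here.

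The mitochondrial ribosome translates the few messages encoded in mitochondrial DNA, all of which specify subunits of the respiratory chain and ATP synthase. Its RNA is made in the organelle, but its proteins are encoded in the nucleus, made in the cytosol and imported, so their messages appear in an RNA sequencing table like those of any nuclear gene. Many of them descend from bacterial ribosomal proteins, and others are found only in mitochondrial ribosomes. Mnt is a transcriptional repressor that dimerises with Max and occupies the E-box sequence also bound by Myc with Max, and Myc is known to act on genes of mitochondrial biogenesis and translation.

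The libraries held between 22323050 and 42193292 reads recovered from the normalised values, and the member with the fewest reads, Mrpl57, still had 142 in its lowest library. Mnt was at 50.4% of its control level (adjusted p = 0.0546 by limma, and 0.00442 when replicate numbers entered as blocks). The log2 fold change of Mnt was -0.96, or -1.19 without siNTC replicate 2 and -0.77 without siNTC replicate 3. The epithelial keratin Krt8 lay between 30725 and 41841 and E-cadherin, Cdh1, between 5813 and 11109 in the 6 libraries. The summed level of 7 epithelial markers ran from 124396 to 147386 in siNTC and from 139912 to 152116 in siMnt. By log2 fold change 5 of these 7 lay above 0 and 2 below. The lowest was Cldn4, at 272, 485 and 77.5 in siNTC and 83.3, 100 and 63.7 in siMnt. Of the haematopoietic markers present, Ptprc lay between 1.29 and 6.65, Lyz2 between 1.94 and 11.9, and Cd68 higher, between 112 and 257. Of the endothelial markers present, Pecam1 lay between 1.08 and 9.55 and Cdh5 between 32.2 and 96.1. The summed level of 6 mesenchymal markers ran from 204173 to 342957 in siNTC and from 96497 to 143006 in siMnt. Most of the sum was Fn1, at 145991 to 269132 in siNTC and 67382 to 105256 in siMnt. Vim and Cdh2 were lower in siMnt (adjusted p = 0.0226 and 0.0439 by limma). Col1a1 overlapped, at 196, 147 and 140 in siNTC and 187, 155 and 183 in siMnt. The part of these markers in the results on the ribosomal proteins was not tested. Over all genes siNTC replicate 3 stood apart from its group, at -0.81 on the first principal component against -43.0 and -52.3 for siNTC replicates 1 and 2 and 29.4 to 35.5 for siMnt. Over the ribosomal protein genes a different control, siNTC replicate 2, stood apart. The count that passed and the median over all the ribosomal protein genes are given with and without each. Other counts and medians are given with all 6 libraries, some also without siNTC replicate 2. For some single genes, values without a library are given too.

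No mitochondrial ribosomal protein gene passed the test between siMnt and siNTC: 0 of 78 were higher and 0 lower at an adjusted p under 0.05 (limma, Benjamini-Hochberg adjusted across the whole tested table). Over all tested genes 3.93% passed, 2.56% higher and 1.37% lower in siMnt. At an unadjusted p under 0.05 there were 11 members, 1 higher (Mrps6) and 10 lower, or 14.1% of the members beside 23.4% of all tested genes (12.7% higher and 10.7% lower). edgeR on the recovered reads called 0 members where it called 3.54% of the genes, 2.29% higher and 1.25% lower. DESeq2 called 3, with Mrps6 higher and Mrpl13 and Mrpl16 lower, where it called 11.6% of the genes, 6.71% higher and 4.89% lower. The members' log2 fold changes (differences of mean log2(value + 1), siMnt minus siNTC) ran from -0.63 to 0.44 with a median of -0.15, and the median over all tested genes was -0.01. Of the 78, 58 lay below 0 (74.4%, beside 51.4% of all tested genes). The 95% confidence interval of the log2 fold change lay wholly within a 2-fold change in either direction for 75 of the 78 members, the exceptions being Mrpl13, Mrpl22 and Mrps18b, and covered 0 for 67. Over all tested genes the interval lay within the 2-fold bounds for 75.4%. A lower normalised value in bulk RNA is relative to the other RNA of the library. It can come from fewer cells expressing the gene or from less of its RNA per cell, and these cannot be told apart.

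The lean of the group below 0 rested mostly on a single control library, siNTC replicate 2. In siNTC replicate 2 the median member lay 0.31 above its own mean over the 6 libraries on the log2 scale, whereas in the other 5 libraries the median deviation lay between -0.11 and -0.02. siNTC replicate 2 was the highest of the 6 libraries for 71 of the 78 members (91.0%), which held for 31.8% of all tested genes. The 7 members highest elsewhere were all highest in a siMnt library. Summed over the 78 genes, siNTC replicates 1, 2 and 3 held 73775, 95030.1 and 69922 normalised read counts, and siMnt replicates 1, 2 and 3 held 70114, 73892 and 71144. Without siNTC replicate 2, 0 members passed, where 1.73% of all tested genes did, 1.11% higher and 0.621% lower. In that fit 39 of 78 members lay below 0, and the median log2 fold change was -0.01 over the members and -0.01 over all tested genes. The fit kept siMnt replicate 2, which has the same replicate number and the highest sum in siMnt. Because siNTC replicate 2 was singled out from these members' own values, leaving it out had to raise most of their log2 fold changes. Without siNTC replicate 3, 6 members were lower and 0 higher, where 6.5% of all tested genes were lower and 9.51% higher, 16% in all. These 6 were Mrpl13, Mrpl16, Mrpl22, Mrpl33, Mrpl36 and Mrps27, and the median was -0.22. Without siNTC replicate 1 the median was -0.20 and 63 members lay below 0.

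**Figure D1:**
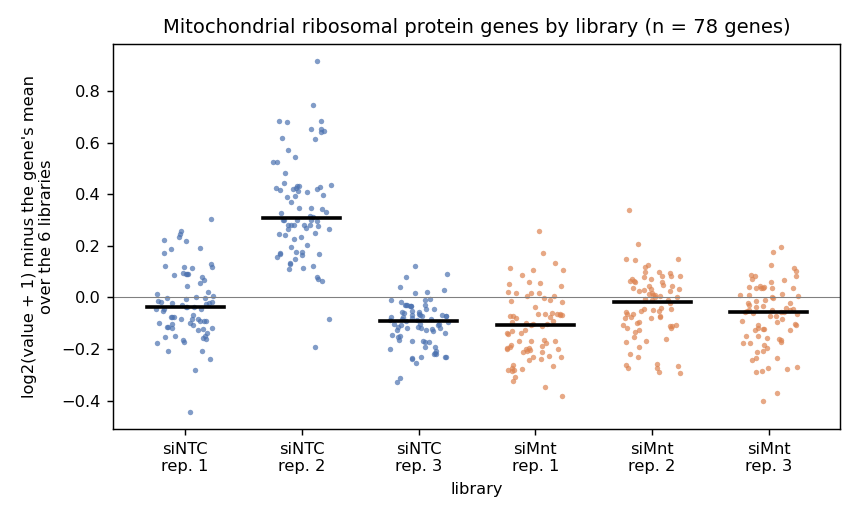
Each point is 1 of the 78 mitochondrial ribosomal protein genes in 1 library, plotted as log2(value + 1) minus the gene's mean over the 6 libraries, with siNTC in blue, siMnt in orange and the median as a black bar. siNTC replicate 2 has a median of 0.31 and the other 5 libraries have medians between -0.11 and -0.02.

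The titles give each siMnt library the number of a siNTC library, and same-numbered libraries deviated together over all genes. The median difference over the members was -0.09 within number 1, -0.36 within number 2 and 0.02 within number 3. Of the 78 members, 47 lay below 0 within number 1, 73 within number 2 and 34 within number 3. In 27 members (34.6%) all 3 differences lay below 0, and in 5 (6.41%) all 3 lay above, beside 29.4% and 28.4% of all tested genes. In the fit blocked by replicate number 1 member was higher and 4 were lower, where 9.33% and 6.56% of all tested genes were, 15.9% in all. Mrps6 was the higher one (adjusted p = 0.028), and the lower ones were Mrpl13 (0.0197), Mrpl22 (0.0363), Mrps27 (0.039) and Mrpl16 (0.0469).

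Myc, which encodes the E-box activator that Mnt opposes, was also highest in siNTC replicate 2. Its values were 4508, 8029 and 2041 in siNTC replicates 1, 2 and 3 and 1796, 3847 and 1631 in siMnt. In each group the replicate with the highest Myc was number 2, and it was also the one with the highest sum over the ribosomal protein genes. Myc did not pass between the groups (log2 fold change -0.90 ± 0.50, adjusted p = 0.312 by limma, and 0.0135 with the block). Its log2 fold change was -0.44 without siNTC replicate 2 and -1.42 without siNTC replicate 3 (adjusted p = 0.0414 by limma in the latter). Its part in the level of the ribosomal protein genes was not tested.

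The large subunit carries the catalytic centre, where peptide bonds form, and the tunnel through which the new chain leaves. Its 49 members had a median log2 fold change of -0.15, and 38 lay below 0. Without siNTC replicate 2 the median was 0.00 and 24 lay below 0. Mrpl13, a large subunit protein with a bacterial counterpart, had the lowest log2 fold change of all members. It was at 2163, 2991 and 1916 in siNTC and at 1429, 1524 and 1538 in siMnt, so the groups did not overlap. The means were 2357 ± 563 and 1497 ± 59.0 (SD, n = 3), for a log2 fold change of -0.63 ± 0.17 (adjusted p = 0.0769 by limma). All 3 differences within replicate numbers lay below 0, at -0.60, -0.97 and -0.32, and leaving out siNTC replicate 2 gave -0.44. In GENCODE M21 its exons overlap those of Mtbp on the opposite strand, and the sources used here do not say whether counting used the strand. Mtbp was at 939, 1975 and 711 in siNTC and 688, 1045 and 599 in siMnt. The log2 fold change of Mtbp was -0.54 (adjusted p = 0.418 by limma), or -0.11 without siNTC replicate 2. The share of Mrpl13 reads from Mtbp was not tested. Exon overlaps with another gene, on either strand, are annotated for 33 members. They include Mrpl9, Mrpl10, Mrpl33, Mrpl36, Mrpl48, Mrpl49, Mrps6, Mrps18b and Mrps27, whose values are uncertain too.

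Mrpl22, which lines the exit tunnel, was at 511, 648 and 391 in siNTC and 344, 352 and 319.8 in siMnt. All siMnt values lay below all siNTC values (log2 fold change -0.58 ± 0.20, adjusted p = 0.13 by limma). Mrpl33, a small protein bound to ribosomal RNA, was at 1195, 1750.1 and 1013 in siNTC and 971, 908 and 906 in siMnt. The groups were apart, though siMnt replicate 1 and siNTC replicate 3 lay close together (log2 fold change -0.47 ± 0.20, adjusted p = 0.202 by limma), and leaving out siNTC replicate 2 gave -0.25. Mrpl16, of the core of the subunit, was at 1463, 1655 and 1228 in siNTC and 1069, 1029 and 1078 in siMnt (adjusted p = 0.106 by limma). Mrpl36, a short zinc-binding protein, was at 728, 850 and 579 in siNTC and 529, 508 and 526 in siMnt (adjusted p = 0.153 by limma). Both were named after their values were seen, and in both the groups did not overlap.

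At the other end of the large subunit, Mrpl48 of the central protuberance was at 280.4, 383 and 286 in siNTC and 356, 394 and 366 in siMnt (log2 fold change 0.25 ± 0.17, adjusted p = 0.421 by limma). Only siNTC replicate 2 lay within the siMnt range, and leaving it out gave 0.39. Mrpl23, at the tunnel exit, was at 229, 341 and 307 in siNTC and 342, 338 and 329.6 in siMnt (0.22 ± 0.18, adjusted p = 0.502 by limma). siNTC replicates 1 and 3 lay below all siMnt values and siNTC replicate 2 lay among them. Its log2 fold change was 0.054 without siNTC replicate 1 and 0.34 without siNTC replicate 2. Mrpl48 and Mrpl23 have annotated pseudogenes, so their reads are uncertain.

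The large subunit members with the most reads did not differ beyond their spread. Mrpl9 was at 2122, 2997 and 2113 in siNTC and 2354, 2524 and 2285 in siMnt (log2 fold change 0.00 ± 0.16, adjusted p = 0.99 by limma). Mrpl49 was at 2040.3, 2674 and 2014 in siNTC and 2445, 2363 and 2100.3 in siMnt (0.05 ± 0.14, adjusted p = 0.883 by limma). Mrpl10, of the stalk that recruits translation factors, was at 1873, 2437 and 1887 in siNTC and 1941, 2128 and 1948 in siMnt (-0.03 ± 0.14, adjusted p = 0.916 by limma). In all 3 genes the highest library was siNTC replicate 2. The sign of the difference in these 3 genes depended on which libraries or test were used. Mrpl57, the member with the lowest mean, was at 197, 224 and 156 in siNTC and 154, 178 and 208 in siMnt, and the groups overlapped.

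By position in the ribosome, the 3 members of the stalk and its base (Mrpl10, Mrpl11 and Mrpl12) had a median log2 fold change of -0.03, the 6 around the polypeptide exit -0.05 and the 8 of the central protuberance -0.12. Mrpl22 was the lowest of the exit group and Mrpl48 the highest of the central protuberance. The 48 members with a bacterial counterpart had a median of -0.18 and the 30 found only in mitochondria -0.13. Without siNTC replicate 2 the medians were 0.08 for the stalk, 0.05 for the exit, 0.06 for the central protuberance, 0.01 for the members with a bacterial counterpart and -0.02 for the others.

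**Figure D2:**
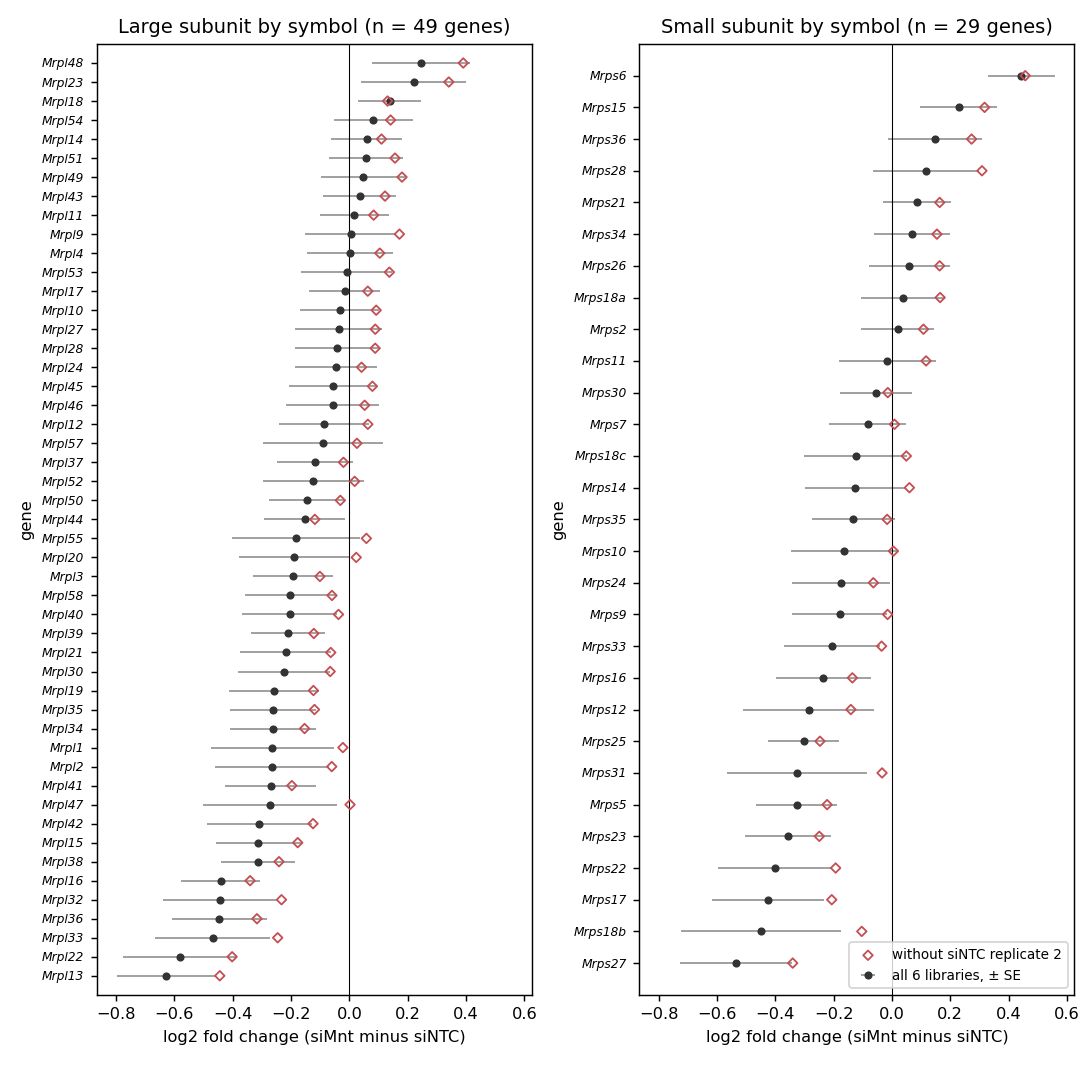
Each row is a gene of the large (49 genes) or small (29 genes) subunit by symbol. Black points give the log2 fold change (siMnt minus siNTC) with its standard error from all 6 libraries, from -0.63 for Mrpl13 to 0.44 for Mrps6, and open red diamonds give it without siNTC replicate 2, which lie to the right of the black point for every gene but Mrpl18.

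The small subunit binds the message and reads its codons. Its 29 members had a median log2 fold change of -0.13, and 20 lay below 0. Without siNTC replicate 2 the median was -0.01. Although their symbols begin with Mrps, Mrps18a and Mrps30 are found in the large subunit of the mammalian mitochondrial ribosome, and Mrps36 has been assigned to the oxoglutarate dehydrogenase complex. Mrps6, with a bacterial counterpart, had the highest log2 fold change of all members and the smallest adjusted p. It was at 1608, 1661 and 1618 in siNTC and 2272, 2403 and 1990.05 in siMnt, so the groups did not overlap and the control values lay close together. The means were 1629 ± 28.4 and 2222 ± 211, the log2 fold change was 0.44 ± 0.12, and adjusted p was 0.0716 by limma, outside the threshold. It passed with the block (0.028), by DESeq2 (0.0104) and once GC content and transcript length were corrected for (0.0459). That correction called 1 member higher and 0 lower, where 8.02% of all tested genes passed, 4.87% higher and 3.15% lower. With the correction and the block together 1 member was higher and 4 were lower, where 18.8% passed, 10.7% higher and 8.08% lower. Within numbers 1, 2 and 3 the difference was 0.50, 0.53 and 0.30.

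Mrps6 shares its start with Slc5a3, a myo-inositol transporter. In RefSeq on GRCm38.p6 the annotated starts of both genes lie 14 bases apart on the same strand of chromosome 16, and in GENCODE M21 their exons overlap by up to 159 bases on that strand. Slc5a3 was at 1542, 1006 and 2029.7 in siNTC and 4173, 3153 and 3586 in siMnt, with every siMnt value above every siNTC value. It rose (log2 fold change 1.30 ± 0.24, adjusted p = 0.035 by limma, and 0.0412 without siNTC replicate 2). The sources used here do not say how reads in the shared exon were assigned, so the value of Mrps6 is uncertain, and the share of its reads that came from Slc5a3 transcripts was not tested. The promoter of Mrps6 is shown because it is the region both genes start from. It spans chr16:92058086-92058385 on the plus strand, 250 bases before the start and 50 after, and holds none of the motifs searched here.

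Mrps6: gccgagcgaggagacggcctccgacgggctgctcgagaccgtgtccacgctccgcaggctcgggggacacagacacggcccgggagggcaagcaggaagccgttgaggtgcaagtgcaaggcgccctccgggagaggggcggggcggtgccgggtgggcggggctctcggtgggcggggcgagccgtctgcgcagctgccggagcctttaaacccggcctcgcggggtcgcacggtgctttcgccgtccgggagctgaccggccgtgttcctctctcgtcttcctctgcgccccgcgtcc

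Mrps27, an RNA-binding pentatricopeptide repeat protein of the small subunit, had the lowest log2 fold change there. It was at 812, 1095 and 660 in siNTC and 546, 619 and 571 in siMnt, without overlap (log2 fold change -0.53 ± 0.19, adjusted p = 0.147 by limma, and -0.34 without siNTC replicate 2). Mrps17 was at 1370.4, 2023 and 1198 in siNTC and 1066, 1174 and 1094 in siMnt, also without overlap (-0.43 ± 0.19, adjusted p = 0.229 by limma), and leaving out siNTC replicate 2 gave -0.21. Mrps18b, one of the related Mrps18 proteins, had the largest shift of the 78 members when siNTC replicate 2 was left out. It was at 1161, 2305 and 1089 in siNTC and 1040.2, 1188 and 926 in siMnt, so siNTC replicates 1 and 3 lay within the siMnt range. Its log2 fold change was -0.45 ± 0.27 (adjusted p = 0.363 by limma) with all libraries and -0.10 without siNTC replicate 2.

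Mrps15 was at 698, 824 and 671 in siNTC and 816, 844 and 902 in siMnt (log2 fold change 0.23 ± 0.13, adjusted p = 0.333 by limma). Only siNTC replicate 2 reached the siMnt range. Mrps36 was at 376, 451 and 321 in siNTC and 430.3, 408 and 423 in siMnt (0.15 ± 0.16, adjusted p = 0.626 by limma), and it has annotated pseudogenes. Its log2 fold change was 0.27 without siNTC replicate 2 and 0.029 without siNTC replicate 3. Mrps21, a small subunit protein with a bacterial counterpart, was at 1651, 1988 and 1724 in siNTC and 1859, 1959 and 1853 in siMnt (0.08 ± 0.12, adjusted p = 0.709 by limma), with siNTC replicate 2 highest. Its log2 fold change was 0.16 without that library and 0.030 without siNTC replicate 1. Read counts grow with transcript length, so levels were not compared between members.

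**Figure D3:**
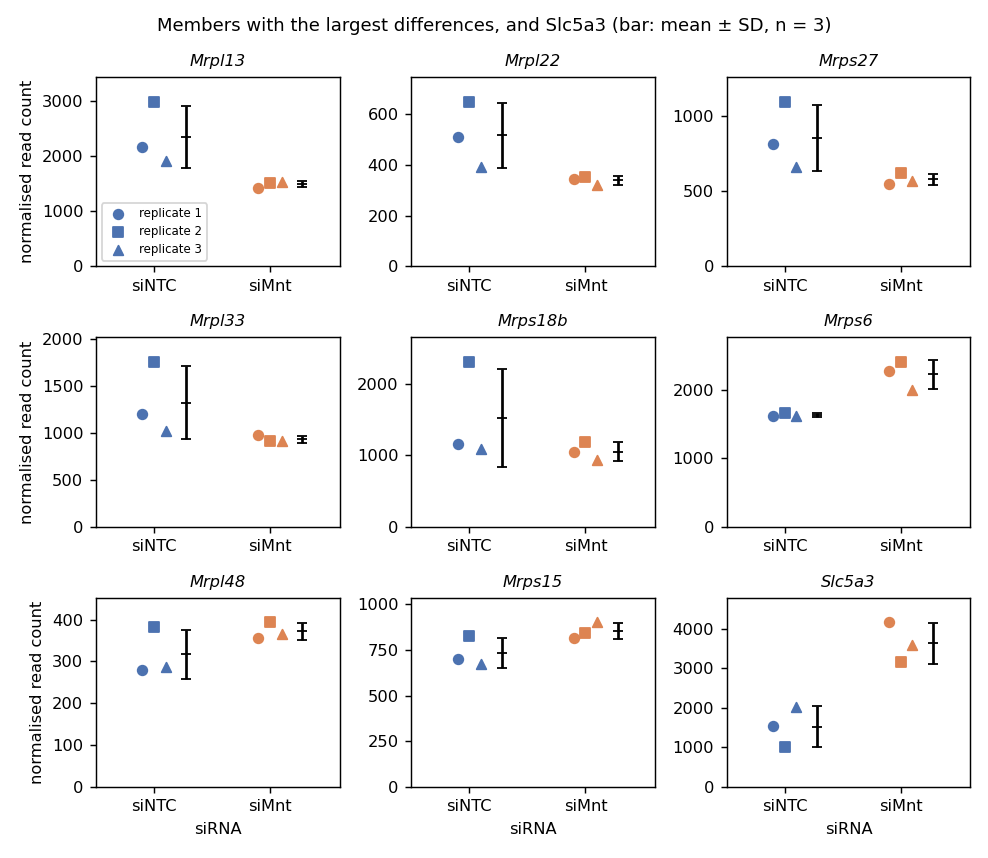
Normalised read counts in each library for 8 mitochondrial ribosomal protein genes with large differences and for Slc5a3, with siNTC in blue, siMnt in orange, a marker shape per replicate number, and the mean ± SD over 3 libraries in black. Mrpl13, Mrpl22, Mrps27 and Mrpl33 lie lower in siMnt without overlap, Mrps18b is high in siNTC replicate 2 alone, and Mrps6 and Slc5a3 lie higher in siMnt without overlap.

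Over all members the groups did not overlap in 18 of 78, 16 with siMnt lower and 2 with siMnt higher, the latter being Mrps6 and Mrpl18. Over all tested genes 31.5% did not overlap, 15.9% lower and 15.6% higher, so the share among the members, 23.1% in all, was below that of the table, with 20.5% lower and 2.56% higher. An exact two-sided permutation test on any single member cannot go below p = 0.1 with 3 against 3 libraries.

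Promoter sequences from RefSeq (GRCm38.p6, 300 bases each) were matched for 69 of the 78 members, with 75 promoters in all. The E-box CACGTG, which reads the same on both strands, was in 9.33% of them, beside 7.15% of all 32851 promoters and 9.79% of the 12645 promoters of tested genes. It was found for 5 of the 69 matched members (7.25%), Mrpl2, Mrpl20, Mrpl36, Mrpl37 and Mrps18c, and 3 of the 7 promoters were overlapping windows of Mrpl2 that hold the same E-box. Their median log2 fold change was -0.19, and that of the 64 matched members without it was -0.15. CCGGAAG, the core bound by ETS factors such as GABP, was in 34.7% of the member promoters, 8.86% of all promoters and 17.4% of those of tested genes on either strand. GCATGCGC, part of the site of the nuclear respiratory factor Nrf1, was in 10.7%, 2.71% and 5.09%, and a longer form of the Nrf1 site, which contains it, in 4.0%, 0.971% and 2.04%. The median log2 fold change was -0.16 with CCGGAAG (26 members) and -0.15 without, and -0.33 with GCATGCGC (8 members) and -0.14 without. The medians by motif use all 6 libraries and were not computed without siNTC replicate 2. Among members with GCATGCGC, leaving out that library moved Mrps18b from -0.45 to -0.10 and Mrpl33 from -0.47 to -0.25. It moved Mrpl22 from -0.58 to -0.40 and Mrpl32 from -0.44 to -0.23. Mrpl9 moved from 0.005 to 0.17 and Mrpl10 from -0.03 to 0.09. Values are not given here for Mrpl17 and Mrpl39, which also have the motif. Differences by motif were not tested.

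A promoter with each kind of motif is shown for members that were low in siMnt without overlap. That of Mrpl36, at chr13:73330759-73331058 on the plus strand, has the E-box in capitals, beginning 43 bases before the start. That of Mrpl22, at chr11:58171414-58171713 on the plus strand, has CCGGAAG beginning 53 bases and the reverse complement of GCATGCGC 33 bases before the start, both in capitals. A motif match describes these letters only and does not show that a factor is bound.

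Mrpl36: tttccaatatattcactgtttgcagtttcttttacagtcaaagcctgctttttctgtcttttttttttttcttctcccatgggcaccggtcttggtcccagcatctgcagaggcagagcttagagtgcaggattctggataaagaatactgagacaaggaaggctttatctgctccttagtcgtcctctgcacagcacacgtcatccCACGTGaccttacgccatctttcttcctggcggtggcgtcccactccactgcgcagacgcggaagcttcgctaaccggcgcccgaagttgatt

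Mrpl22: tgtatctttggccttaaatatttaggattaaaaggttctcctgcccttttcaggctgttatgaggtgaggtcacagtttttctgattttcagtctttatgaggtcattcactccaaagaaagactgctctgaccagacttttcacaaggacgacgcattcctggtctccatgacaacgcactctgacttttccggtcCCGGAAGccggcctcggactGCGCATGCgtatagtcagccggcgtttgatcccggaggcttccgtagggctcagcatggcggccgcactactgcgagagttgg

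The other genes of mitochondrial translation were examined by list. Of the 5 ribosomal proteins with other symbols (Dap3, Chchd1, Aurkaip1, Ptcd3 and Gadd45gip1) 0 passed, and their median log2 fold change was -0.13. Ptcd3, a pentatricopeptide repeat protein of the small subunit, was at 2493, 2802 and 2036 in siNTC and 1897, 1826 and 1716 in siMnt, without overlap (adjusted p = 0.126 by limma, and 0.0397 with the block). Of 28 assembly factors 0 passed (median -0.20), with a log2 fold change of -0.58 for Mettl17, which takes part in small subunit assembly (adjusted p = 0.115 by limma), and -0.53 for Fastkd2 (0.16). Leaving out siNTC replicate 2 gave -0.52 for Mettl17 and -0.33 for Fastkd2. Of 16 translation factors 0 passed (median -0.09), with a log2 fold change of -0.22 for Tufm (adjusted p = 0.256 by limma) and -0.23 for Gfm1 (0.339), both elongation factors. Of the 17 mitochondrial aminoacyl-tRNA synthetases 0 passed (median -0.20), with a log2 fold change of -0.32 for Yars2 (adjusted p = 0.215 by limma) and -0.21 for Iars2 (0.277). Of 14 genes of mitochondrial DNA and transcription 0 passed (median -0.12). Tfb2m, the initiation factor of mitochondrial transcription, came nearest in that list, at 776, 1114 and 699 in siNTC and 510, 504 and 598 in siMnt (log2 fold change -0.66 ± 0.19, adjusted p = 0.0909 by limma, and 0.0361 with the block). For Tfb2m, leaving out siNTC replicate 2 gave -0.46. Next was Elac2, which trims mitochondrial tRNAs, with a log2 fold change of 0.32 (adjusted p = 0.132 by limma). Of 23 import genes with Tomm or Timm symbols 0 passed (median -0.13), with a log2 fold change of 0.48 for Tomm6 (adjusted p = 0.077 by limma) and -0.40 for Tomm70a (0.122). Without siNTC replicate 2 the medians of these lists were -0.04 for the ribosomal proteins with other symbols, -0.03 for assembly factors, 0.02 for translation factors, -0.10 for the synthetases, 0.02 for DNA and transcription and -0.04 for import.

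Of 12 genes listed as regulators of mitochondrial biogenesis, Myc, Max and Mxi1 among them, 2 rose and 0 fell by limma. Of all tested genes 2.56% rose and 1.37% fell. The list median was 0.22 (0.18 without siNTC replicate 2). With the block 4 rose and 1, Myc, fell, where 9.33% and 6.56% of all tested genes did. The list was chosen with earlier results of these data known, so these counts cannot be read as an excess. Ppargc1a, the coactivator PGC-1alpha, was at 96.9, 105 and 163 in siNTC and 339.5, 515 and 252 in siMnt, without overlap. It rose with a log2 fold change of 1.57 ± 0.30 (adjusted p = 0.0368 by limma), and adjusted p was 0.0701 without siNTC replicate 2. Mxi1, listed there as a Max partner that represses Myc targets, was at 2436, 1923 and 2588 in siNTC and 3551, 3543 and 3507 in siMnt (log2 fold change 0.62 ± 0.13, adjusted p = 0.0478 by limma). The factors Nrf1, Gabpa and Esrra were among the 10 that did not pass.

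Genes of the cytosolic ribosome and of oxidative phosphorylation were also mostly highest in siNTC replicate 2. Of 83 cytosolic ribosomal protein genes 82 were highest in that library, and of 81 nuclear-encoded subunits of oxidative phosphorylation 65 were, beside 71 of the 78 mitochondrial ribosomal protein genes. Of the cytosolic set 1 gene fell, Rpl27 (5651, 7837 and 4901 in siNTC, 2616, 2557 and 3109 in siMnt, adjusted p = 0.0247 by limma), and the median log2 fold change was -0.20, or -0.02 without siNTC replicate 2. Many cytosolic ribosomal protein genes have near-identical pseudogenes, so their values are uncertain. Of the oxidative phosphorylation set 1 gene fell, Sdha, the catalytic subunit of succinate dehydrogenase (5089, 5444 and 5124 in siNTC, 2744, 2742 and 3641 in siMnt, adjusted p = 0.0302 by limma), and adjusted p was 0.0527 without siNTC replicate 2. Its median was -0.02, or 0.12 without siNTC replicate 2. The share of all tested genes that fell was 1.37%. These differences between groups of genes were not tested.

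**Figure D4:**
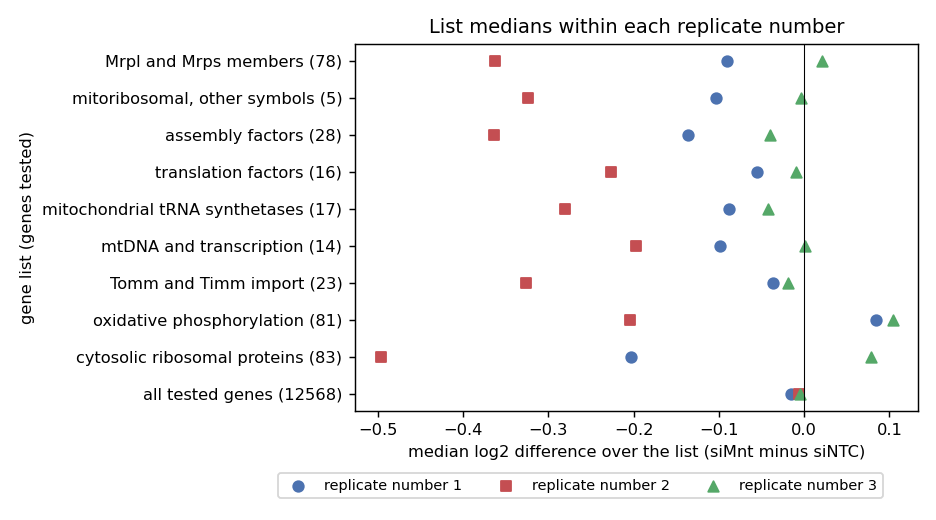
Median log2 difference (siMnt minus siNTC) over each gene list within replicate numbers 1 (circles), 2 (squares) and 3 (triangles), with the number of tested genes in brackets. For the 78 mitochondrial ribosomal protein genes the medians are -0.09, -0.36 and 0.02, and in every list shown, all tested genes aside, number 2 is the lowest.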

How the data were processed

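RNA was sequenced in 6 libraries. Per the labels' protocols, Trizol was used for RNA extraction. The submitters' processing notes name TopHat2 2.1.0, DESeq, DESeq2 and build mm9. The sources used here do not name the read counter, annotation or strand setting. A single table of normalised read counts was deposited by the authors (unit: signal). Judged from the values, each is a read count divided by 1 factor per library: once divided by what 1 read is worth, 99.7% of the nonzero values came within 0.05 of a whole number.

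After adding 1 and taking log2, the 1958 genes whose mean was below 10 were left out, and limma 3.58.1 (R 4.3.3, empirical Bayes with a trend) was applied to the others, with an adjusted p under 0.05 as the threshold. On this scale the fold change of a low gene is understated. edgeR 4.0.16 and DESeq2 1.42.0 were run on recovered reads. GC content and length came from the longest GENCODE M21 transcript of each symbol (98.8% of tested genes). Tables were made with Python 3.11.15 and pandas 2.3.3. The fit was also run on simulated counts whose spread was set smaller than that of these data. That run cannot show how the fit performs at the spread seen here. Symbols present in the lists but absent from the table were not analysed here.

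Nothing in the labels says whether replicates came from separate cultures, and p-values then describe the variation among these libraries alone, possibly technical. Correlations of same-numbered libraries' deviations from their group means, across genes, were 0.28, 0.50 and 0.35, and those of differently numbered pairs lay between -0.38 and 0.03, so the replicate number was used as a block in an alternative fit. Replicates differed beyond sampling noise (chi-square per gene averaging 14.5 or more for each pair). The members and gene lists were chosen with earlier results of these data known. Members chosen by rule to be named with values are the 5 with the largest and the 5 with the smallest log2 fold change, the 3 with the most reads in each subunit and the one with the lowest mean. Outside that rule, Mrpl16 and Mrpl36 were added after their values were seen, and fold changes of Mrpl32 are given with the motifs. Mtbp and Slc5a3 are named because their exons overlap those of a named member. From other lists the passing members or up to 2 nearest to passing are named.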

Additional observations from a re-analysis of the deposited data

How the results depend on the processing

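The count of members that passed, 0 higher and 0 lower, was the same with pseudocounts of 0.5 and 4, no filter, a minimum mean of 50, TMM or quantile scaling, no variance trend, thinning to the lowest library total, and edgeR. DESeq2 gave 1 higher and 2 lower, the replicate block 1 and 4, the correction for GC content and length 1 and 0, that correction with the block 1 and 4, and an adjusted p under 0.1 gave 1 and 1. Leaving out single libraries gave 0 higher each time and 0 to 6 lower, the 6 without siNTC replicate 3. Over all tested genes the main count was 494. It was 1457 by DESeq2, 996 with the GC and length correction, 2335 with that correction and the block, 322 with a minimum mean of 50, 306 without a variance trend, 1998 with the replicate block and 1336 at an adjusted p under 0.1. Leaving out single libraries gave 0 to 2012 genes, of which 0 when siNTC replicate 1 or either of siMnt replicates 1 and 2 was left out, 125 without siMnt replicate 3 and 217 without siNTC replicate 2. The median log2 fold change of the members lay between -0.22 and -0.01 when single libraries were left out, that of the large subunit between -0.23 and 0.00 and that of the small subunit between -0.22 and -0.01, and the upper ends were without siNTC replicate 2. With TMM scaling the members' median was -0.14 and with quantile scaling -0.17. Of the 78 members, 19 crossed from below 0 to above without siNTC replicate 2, 9 from above to below without siNTC replicate 3, and 8 crossed in either direction with the GC and length correction. With each other library left out 1 to 5 crossed, after thinning 3, and 1 each by DESeq2, edgeR, TMM and quantile scaling. Among the members named with values the sign changed for 4. Mrpl9 was at -0.0056 by DESeq2, -0.0045 by edgeR and -0.012 after thinning, and between -0.080 and 0.17 without single libraries. Mrpl57 was at 0.022 with the GC and length correction, with and without the block, and between -0.23 and 0.026 without single libraries. Mrpl10 lay between -0.10 and 0.092 and Mrpl49 between -0.024 and 0.18 without single libraries. The cause was not tested. With 3 libraries a group, differences of the size seen here lie close to the standard errors, whose median over the members was 0.16 on the log2 scale.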
